A study of Mus musculus with 12 samples.

Results

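The miRNAs described here come from imprinted loci that lie apart from the large imprinted miRNA clusters. They were taken as every entry of the count table named mir-483, mir-675, mir-335, mir-296, mir-298 or mir-3099, whether a mature arm or a precursor. This gave 15 of the 1053 entries, namely 10 mature arms and 5 precursors. Small RNA had been sequenced from 12 libraries of sorted mouse embryo cells, 3 at each of 4 stages, to follow miRNAs from endoderm to early pancreatic progenitors. The E8.5 cells carried the Foxa2-CreER knock-in allele, a Cre active only after tamoxifen, which the pregnant dam received, and were sorted from whole embryos. The E9.5, E10.5 and E11.5 cells carried the Pdx1-Cre transgene, which is driven by a promoter of pancreas and duodenum, and were sorted from the trunk. All cells were tdTomato+ through a Cre-dependent reporter, the fathers of both crosses had 1 mir-302 allele replaced by eGFP, and the labels do not say which mir-302 alleles the embryos inherited. Cre driver and dissected region therefore changed together with stage between E8.5 and E9.5, and they cannot be told apart from it.

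Imprinted genes are expressed mainly from the allele of a single parent, and many of them act on growth of the embryo and placenta. Mir483 lies within Igf2, a paternally expressed growth factor gene, and Mir675 within H19, a maternally expressed long noncoding RNA next to it. Mir335 lies within Mest, a paternally expressed gene of mesoderm, Mir296 and Mir298 lie side by side near Nespas, an antisense transcript of the Gnas locus, and Mir3099 lies within Usp29 of the paternally expressed Peg3 domain. From each hairpin precursor Dicer cuts a 5p and a 3p arm, and an arm finds its mRNA targets mainly through its seed, bases 2 to 8.

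On GRCm38 (mm10), Mir483 lay on chromosome 7 at 142654924 to 142654996 on the minus strand, in an intron of Igf2. Mir675 lay on the same chromosome and strand at 142577064 to 142577147, in an exon of H19, and 77776 bases separated the pair. Mir3099 lay on the plus strand of chromosome 7 at 6803587 to 6803670, in an intron of Usp29. Mir335 lay on the plus strand of chromosome 6 at 30741299 to 30741396, in an intron of Mest. Mir296 (174267047 to 174267125) and Mir298 (174267504 to 174267585) lay on the minus strand of chromosome 2, 378 bases apart. No GENCODE gene overlapped them, and Mir298 ended 13651 bases from the annotated span of Nespas.

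The mature sequences of the arms on which the results turn are given 5′ to 3′ from RefSeq (GRCm38.p6), with the seed in capitals, to show that no seed is shared between them.
miR-483-5p: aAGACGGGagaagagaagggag
miR-483-3p: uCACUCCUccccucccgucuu
miR-335-5p: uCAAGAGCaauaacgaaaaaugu
miR-335-3p: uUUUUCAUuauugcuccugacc
miR-296-3p: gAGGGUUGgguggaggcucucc
miR-298-5p: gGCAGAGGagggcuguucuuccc
miR-3099-3p: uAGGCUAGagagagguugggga

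All 10 mature members matched a RefSeq sequence, and they carried 10 distinct seeds. None of these seeds occurred in any other of the 542 mature entries of the table that matched RefSeq. The table held 633 mature entries, and the seeds of those without a match were not compared. Base composition differed among the arms. The arms of mir-335 were poor in G and C (30.4% for the 5p and 36.4% for the 3p arm), whereas miR-296-3p (68.2%), miR-296-5p (66.7%) and miR-298-5p (65.2%) were rich in them. miR-675-5p (63.6%) and miR-483-3p (61.9%) came close to these, while miR-298-3p stood at 50%, as did the median over the 542 entries.

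Depth differed widely, which bears on every value below. Total counts per library ran from 386094 to 594224 in the E8.5 group, but only from 53996 to 80075 in the E9.5 group. The E10.5 group had 133435 to 267978 and the E11.5 group 417743 to 1103383. Levels are given as CPM (counts scaled to a common library total, with a correction for composition), as the mean ± SD of 3 libraries unless single libraries are named, and always in the order of replicates 1 to 3. An entry with 0 counts could have reached 32.0 to 75.8 CPM at E9.5, the level of 3 counts, against 2.75 to 25.8 CPM at the other stages. The counts are reads after PCR, so intervals and limits cover counting error only, and in sorted bulk cells fewer cells of a type cannot be told apart from less RNA per cell. The doubtful entries mir-6236 and mir-6240 took 12.7% to 28.3% of the E9.5 counts and 0.426% to 3.10% of the others. Hepatic markers (miR-122 arms) summed to 461 to 591 CPM in the E8.5 libraries and to at least 38783 CPM in every later library. Muscle markers summed to 5288 to 26850 CPM in the 6 libraries of E8.5 and E9.5 and to 266 to 3517 CPM in the 6 libraries of E10.5 and E11.5. Pancreatic and endocrine markers (miR-375-3p, miR-7a-5p and miR-7b-5p) were present in all libraries, from 22964 CPM in an E8.5 library to 144853 CPM in an E10.5 library. The part of other cell types in the results below was not tested.

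Together the 15 entries took 3.38%, 3.79% and 3.90% of the counts at E8.5. Their share stood at 2.21%, 1.17% and 1.44% in the E9.5 libraries. It was 3.16%, 2.03% and 3.23% in the E10.5 libraries and 2.62%, 2.39% and 2.57% in those of E11.5. All E8.5 libraries thus lay above all others, and all E9.5 libraries except replicate 1 lay below all others. Of the 15 entries, 13 had counts enough for a test. The remaining 2 were miR-298-3p, with 39 counts that were all in E10.5 replicate 3, and miR-675-5p, with 4 counts that were all in E8.5 replicate 2. The count table had no entry for the other arm or the precursor of mir-675, or for the 5p arm of mir-3099. miR-675-5p, from H19, was therefore at or under the level of 3 counts in 11 libraries and at 10.3 CPM in the remaining library, while miR-483 from the neighbouring Igf2 was among the abundant miRNAs of every stage.

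Between stages the 13 tested members moved little relative to their spread. Entries were called at an adjusted p under 0.05 (quasi-likelihood test of edgeR over all 571 entries tested, all 12 libraries in 1 fit). No member was called between E8.5 and E9.5, where 5.60% of all entries were called. There 2 members had an unadjusted p under 0.05, as did 20% of all entries. From E9.5 to E10.5, 1 member was called, miR-3099-3p, which was higher (4.38% of all entries were called, and 1.58% were called higher). No member was called from E10.5 to E11.5 (0.350% of all entries), where 0 members had an unadjusted p under 0.05 (10.7% of all entries). None was called between E8.5 and E11.5 either (11.6% of all entries), where 2 members had an unadjusted p under 0.05 (23.3% of all entries). With DESeq2, the counts of members called in these 4 comparisons were 0, 1, 0 and 2, beside 13.8%, 11.9%, 1.40% and 16.5% of all entries. A comparison added after the counts had been seen, of the mean of the 3 Pdx1-Cre stages with E8.5, called 1 member, miR-335-3p, which was lower (17.9% of all entries were called, and 11.0% were called lower).

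The median log2 fold change over the 13 members was −1.64 from E8.5 to E9.5, beside −0.84 over all entries, and all 13 fitted values were negative, as were 62.0% of all values. It was 0.96 from E9.5 to E10.5, beside 0.17 over all entries, with 12 positive values where 52.0% of all values were positive. From E10.5 to E11.5 it was 0.04, beside 0.07, and from E8.5 to E11.5 it was −0.38, beside −0.07. The precursor mir-3099 had no counts at E9.5 and the precursor mir-296 none at E10.5, so their fitted changes against those stages rest on the prior count of the fit. Leaving them out there, the medians were −1.59 over 12 members, 0.96 over 11 and −0.02 over 12 in the first 3 comparisons. For 5 members (mir-335, miR-335-3p, miR-296-3p, mir-298 and miR-298-5p) every E9.5 library lay below every E8.5 library, as it did for 27.5% of all entries. The same 5 had every E11.5 library below every E8.5 library (21.2% of all entries), while both mir-3099 entries had every E11.5 library above (17.3% of all entries). From E9.5 to E10.5 only miR-3099-3p among the members had all libraries higher (8.76% of all entries). These counts describe entries that passed a filter on low values and are not evidence about the set.

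**Figure D1:**
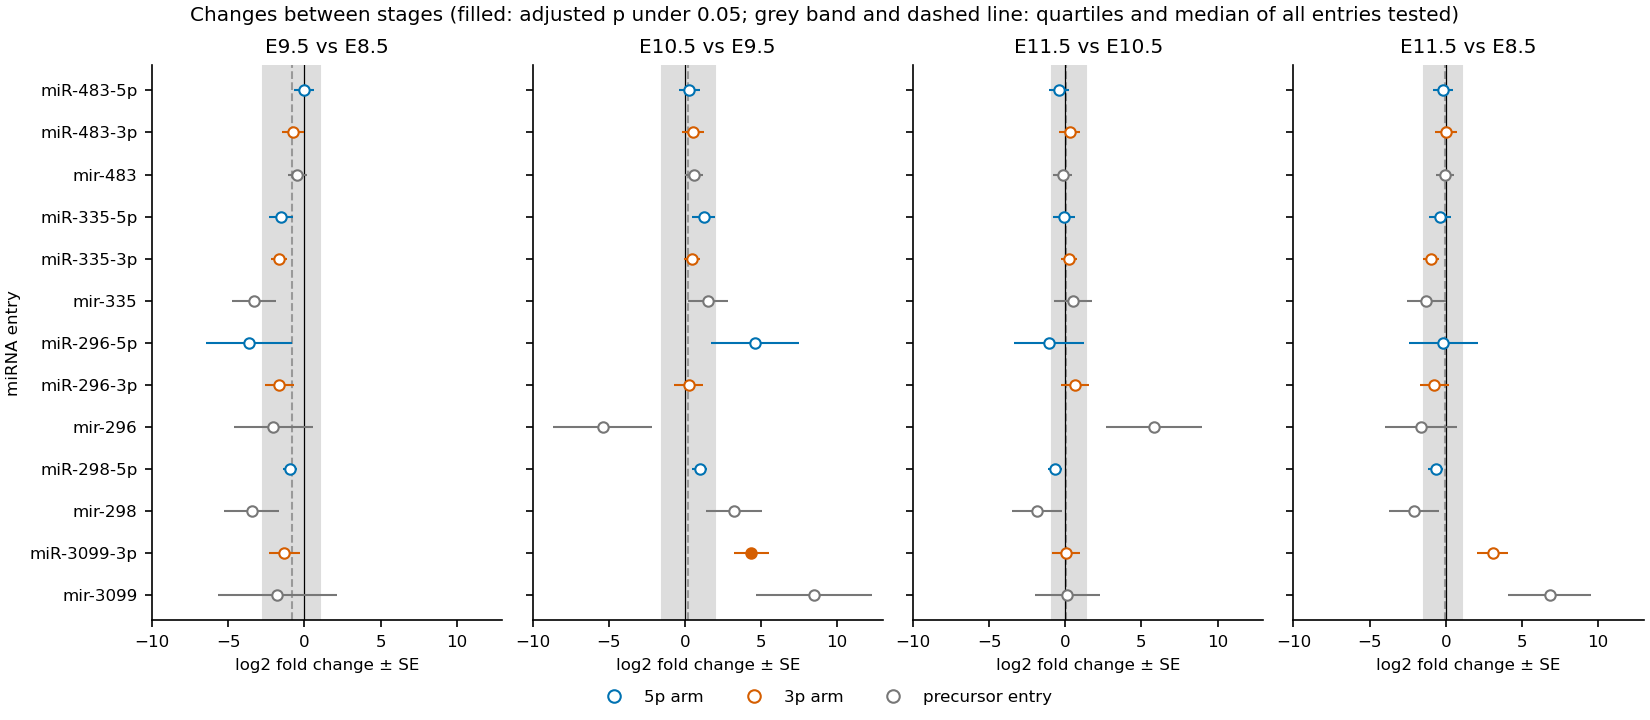
Log2 fold change ± SE (x axis) of the 13 tested entries (y axis) in 4 comparisons of stages, with 5p arms in blue, 3p arms in orange and precursor entries in grey. miR-3099-3p from E9.5 to E10.5 (4.37) is the only filled point, that is, the only one with an adjusted p under 0.05, and most other entries lie within the grey band that spans the quartiles of all 571 entries. The points of mir-3099 against E9.5 and of mir-296 against E10.5 rest on stages with no counts.

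The Usp29 miRNA mmu-miR-3099-3p had the smallest adjusted p of the 13 members in the comparisons of neighbouring stages, though the sparser miR-296-5p, mir-296 and mir-3099 had larger fitted changes from E9.5 to E10.5. It had 88, 60 and 57 counts at E8.5 (152, 155 and 82.2 CPM), and 1, 8 and 2 counts at E9.5 (16.3, 85.4 and 50.6 CPM). At E10.5 it had 137, 138 and 391 counts (522, 1186 and 1523 CPM), and at E11.5 it had 249, 1291 and 1314 counts (568, 1183 and 1582 CPM). The 6 later libraries all lay above the 6 earlier ones. The summed pancreatic and endocrine markers did likewise, at 76717 CPM or more against 63429 CPM or less, and the muscle markers did the reverse, and their part in this order was not tested. The log2 fold change from E9.5 to E10.5 was 4.37 (SE 1.13, 95% interval 2.03 to 6.70, adjusted p 0.0252 in edgeR). All 3 E9.5 counts were small, at or under 8 reads, and the mean of E9.5 (50.7 ± 34.5 CPM) lay within the 32.0 to 75.8 CPM that 3 counts represent in these libraries, so the size of this change is poorly fixed. The call was lost without E10.5 replicate 1 (log2 fold change 4.46, adjusted p 0.0615), without replicate 2 (4.31, adjusted p 0.0956) and without replicate 3 (4.13, adjusted p 0.0722), each time in the same fit of edgeR. It was also lost with size factors of the RLE type (3.89, adjusted p 0.0543), with limma voom (4.19, adjusted p 0.218), in a fit of the 6 libraries alone (4.10, adjusted p 0.130) and without mir-6236 and mir-6240 (3.94, adjusted p 0.0585).

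The E8.5 libraries were deeper than those of E9.5 and give a second baseline for miR-3099-3p. Between its E8.5 mean of 130 ± 41.1 CPM and its E11.5 mean of 1111 ± 510 CPM the log2 fold change of miR-3099-3p was 3.09 (SE 1.03, 95% interval 0.97 to 5.22), with no overlap of the libraries and an adjusted p of 0.0531 in edgeR. It therefore missed the threshold. It passed with DESeq2 (3.03, adjusted p 0.000484), limma voom (3.19, adjusted p 0.00595), the 6 libraries alone (3.16, adjusted p 0.00438) and mature arms alone (3.10, adjusted p 0.0436). It also passed in edgeR without E9.5 replicate 1, 2 or 3 (adjusted p 0.0218, 0.0360 and 0.0341). Of all entries tested, these refits called 94 of 571, 147 of 571, 106 of 527, 63 of 374, 80 of 701, 75 of 699 and 76 of 696. The change was not called in 7 of 11 refits with other settings, nor in 9 of 12 that left out a library. Without E8.5 replicate 1, 2 or 3 the adjusted p was 0.157, 0.146 and 0.169 in edgeR. Between E8.5 and E9.5 the log2 fold change of miR-3099-3p was −1.32 (SE 1.03, adjusted p 0.447), and the libraries overlapped. From E10.5 to E11.5 its mean was 1077 ± 509 and then 1111 ± 510 CPM.

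The precursor entry mir-3099 showed a like order on far fewer counts. It had 1 count in all at E8.5 and none at E9.5. The E10.5 libraries had 3, 0 and 81 counts and the E11.5 libraries 50, 257 and 8. Its adjusted p was 0.239 from E9.5 to E10.5 and 0.12 from E8.5 to E11.5 in edgeR. The entries whose CPM followed that of miR-3099-3p most closely over the 12 libraries were miR-455-3p (Spearman 0.91), the precursor mir-99a (0.86) and miR-376b-3p (0.85). These libraries share depth and stage, so the correlations are descriptions only.

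**Figure D2:**
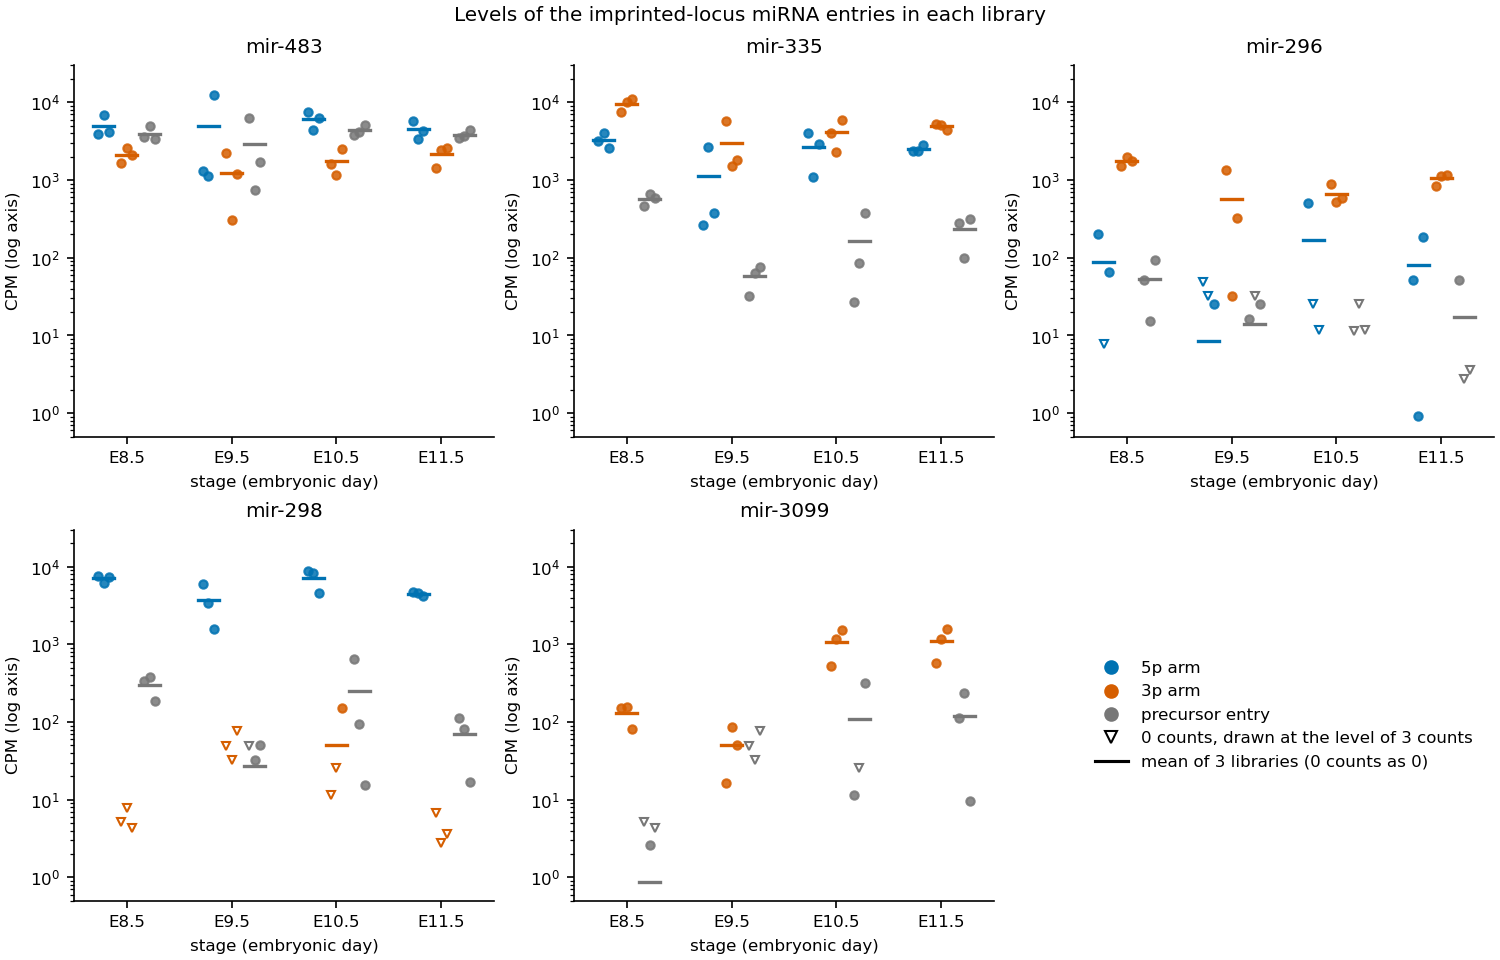
CPM on a log axis (y axis) of each entry in each library by stage (x axis), 1 panel per hairpin, with 5p arms in blue, 3p arms in orange, precursor entries in grey, horizontal bars at the mean of 3 libraries and open triangles for no counts drawn at the level of 3 counts. The 3p arm of mir-3099 sits at 522 to 1582 CPM in the E10.5 and E11.5 libraries, above its 16.3 to 155 CPM in the E8.5 and E9.5 libraries, whereas the mir-483 entries scatter most at E9.5, where the 5p arm spans 1142 to 12439 CPM.

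miR-335-3p, the main arm of the Mest miRNA, was highest at E8.5. The E8.5 libraries held 7543, 10014 and 11120 CPM of it, and the E9.5 libraries 5679, 1515 and 1795 CPM. The E10.5 libraries held 4016, 2277 and 5990 CPM, and the E11.5 libraries 5200, 5086 and 4451 CPM. Each E8.5 library lay above each of the 9 Pdx1-Cre libraries, as for 11.6% of all entries, and the 3 later stages overlapped one another. By its stage mean it ranked 18 of 1053 entries in the E8.5 group, then 61, 48 and 40 in the successive Pdx1-Cre groups. Against E8.5 its log2 fold change was −1.68 at E9.5 (SE 0.53, 95% interval −2.77 to −0.58, adjusted p 0.0651 in edgeR) and −0.96 at E11.5 (SE 0.52, interval −2.04 to 0.11, adjusted p 0.293). Neither was called. Without E9.5 replicate 1, the E9.5 library in which it was highest, the first became −2.61 (adjusted p 0.00155). It was also called with library size alone (−1.89, adjusted p 0.0469) and with counts under 10 set to 0 (−2.12, adjusted p 0.0260). It was called too with each count divided by the level at which its library's counts peaked a second time (−1.79, adjusted p 0.00304). With these divided counts, 40 of the 98 entries tested were called. At E11.5 the change from E8.5 was called with limma voom (−0.97, adjusted p 0.00536), in the 6 libraries alone (−0.94, adjusted p 0.0224) and with divided counts (−1.35, adjusted p 0.000378). Of all entries tested, these refits called 147 of 571, 106 of 527 and 64 of 98.

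In the comparison of the 3 Pdx1-Cre stages with E8.5, which was chosen after these values were seen, miR-335-3p had a log2 fold change of −1.29 (SE 0.39, interval −2.11 to −0.47, adjusted p 0.0245 in edgeR). The call was lost with RLE factors (−1.10, adjusted p 0.0655) and with DESeq2 (−1.10, adjusted p 0.0596). It was also lost without E8.5 replicate 1, 2 or 3 (adjusted p 0.0527, 0.0938 and 0.136), without E9.5 replicate 2 (0.0527) and without E10.5 replicate 1 or 2 (0.0615 and 0.0505), all in edgeR. Mesenchymal markers (miR-143, miR-145, miR-199 and miR-214 arms) summed to 6697 to 13131 CPM in the E8.5 libraries and to 1408 to 4981, 3377 to 11395 and 3783 to 7975 CPM in those of E9.5, E10.5 and E11.5. Of these 5 markers, 1 was at 0 in all E8.5 libraries and none was at 0 in all libraries of another stage. Endothelial markers (both miR-126a arms) summed to 1821 to 2274 CPM in the E8.5 libraries and to 32.5 to 430 CPM in the 9 later ones, so that they too did not overlap. Epithelial markers (5 arms of the miR-200 family) went the other way, from 9003 to 11027 CPM in the E8.5 libraries against at least 16465 CPM later. The part of these cell types in the levels of miR-335-3p and of miR-296-3p was not tested.

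The other products of Mest were lower at E9.5 on fewer reads. The precursor entry mir-335 had at least 253 counts in each E8.5 library and 2, 6 and 3 counts in the E9.5 libraries, which gave 569 ± 97.8 and 57.5 ± 22.4 CPM and no overlap (log2 fold change −3.31, SE 1.42, adjusted p 0.205 in edgeR). The E10.5 libraries had 7, 10 and 97 counts of it and the E11.5 libraries 123, 109 and 264, so that 5 of the 9 Pdx1-Cre libraries held 10 reads or fewer. mmu-miR-335-5p stood at 3138, 4009 and 2574 CPM in the E8.5 libraries and at 260, 2699 and 379.2 CPM in the E9.5 libraries, where replicate 2 reached the E8.5 range and the others lay far below it. Its E10.5 values were 3993, 1109 and 2874 CPM, and its E11.5 values were 2333, 2392 and 2790 CPM. Its log2 fold change was −1.53 from E8.5 to E9.5 (SE 0.76, adjusted p 0.260) and 1.25 from E9.5 to E10.5 (SE 0.76, adjusted p 0.374). Without E9.5 replicate 2 these became −3.09 (adjusted p 0.00894) and 2.84 (adjusted p 0.0228), so that a single library decided both calls.

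The balance of the mir-335 arms in reads differed between libraries of every stage. The 5p arm made up 29.4% (95% Wilson interval 28.3% to 30.5%), 28.6% and 18.8% (18.0% to 19.6%) of arm counts at E8.5 and 31.0%, 32.0% (31.0% to 33.0%) and 38.5% (37.3% to 39.8%) at E11.5. At E9.5 its share was 4.38% (2.72% to 7.00%), 64.1% (59.2% to 68.6%) and 17.4% (10.9% to 26.8%). At E10.5 the shares were 49.9% (47.7% to 52.0%), 32.7% and 32.4% (30.5% to 34.4%). In each stage some libraries thus differed by more than the counting of reads allows, and the shares were farthest apart at E9.5. There the 5p arm had 16, 253 and 15 counts and the 3p arm 349, 142 and 71. Reads are copies made by PCR, so the intervals do not cover the unknown number of molecules behind them. Over the 12 libraries the CPM of miR-335-3p followed that of miR-335-5p only loosely (Spearman 0.34), and followed miR-296-3p, from another chromosome, more closely (0.84).

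miR-483, the miRNA of Igf2, was not called in any comparison, and its E9.5 libraries were too scattered to place that stage. Taken from the earliest stage to the latest, miR-483-5p averaged 4994 ± 1699, 4961 ± 6477, 6100 ± 1542 and 4492 ± 1236 CPM. In the same order mmu-miR-483-3p averaged 2117 ± 445, 1242 ± 961, 1763 ± 677 and 2149 ± 619 CPM, and the precursor entry mmu-mir-483 averaged 3970 ± 884, 2896 ± 2931, 4367 ± 629 and 3846 ± 453.4 CPM. Between E8.5 and E11.5, the stages with the deepest libraries, the log2 fold change was −0.16 for the 5p arm (95% interval −1.52 to 1.21), 0.02 for the 3p arm (−1.45 to 1.49) and −0.05 for the precursor entry (−1.29 to 1.19). Changes within these intervals were not excluded by this fit of all libraries. In a fit of the 6 libraries of E8.5 and E11.5 alone the SE was smaller. It was 0.30 for the 5p arm, 0.37 for the 3p arm and 0.28 for the precursor entry, beside 0.66, 0.71 and 0.60 with all libraries.

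The E9.5 libraries disagreed on mir-483. miR-483-5p stood at 1302, 1142 and 12439 CPM there, from 80, 107 and 492 counts, so that replicate 3 exceeded every other library and the others lay below every other library. The precursor entry was instead highest in replicate 1, at 6232, 736 and 1719 CPM from 383, 69 and 68 counts, and miR-483-3p stood at 2229, 309 and 1188.3 CPM. With all libraries the 5p arm changed by a log2 fold change of −0.02 from E8.5 to E9.5 (SE 0.66, adjusted p 0.999 in edgeR) and by 0.30 from E9.5 to E10.5 (SE 0.66, adjusted p 0.817). Without E9.5 replicate 3 these became −2.03 (adjusted p 0.0146) and 2.34 (adjusted p 0.00689). The precursor entry changed by 0.59 from E9.5 to E10.5 (SE 0.60, adjusted p 0.589), and by 1.95 (adjusted p 0.0469) without E9.5 replicate 1. The 3p arm changed by −0.78 from E8.5 to E9.5 (SE 0.72, adjusted p 0.501).

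The mir-483 hairpin differed from the other members in how much of its count fell to the precursor entry, which takes reads not given to either arm. The precursor entry held 36.5% of all mir-483 counts, and between 34.5% and 37.6% when the libraries of each stage were pooled. Outside E9.5 the 9 libraries ranged from 29.7% to 42.7%, and at E9.5 the shares were 63.8% (95% Wilson interval 59.9% to 67.6%), 33.7% (27.5% to 40.4%) and 11.2% (8.93% to 14.0%). The precursor share was 3.39% for mir-335, 2.85% for mir-298, 1.91% for mir-296 and 9.67% for mir-3099. Among 178 hairpins of the table with at least 1000 counts the median was 7.13% (quartiles 3.40% and 15.8%), and mir-483 ranked 19th. The 5p arm took 68.6% of the arm counts of mir-483 in the pooled libraries, and the level of either arm said little of the other over the 12 libraries (Spearman 0.03).

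**Figure D3:**
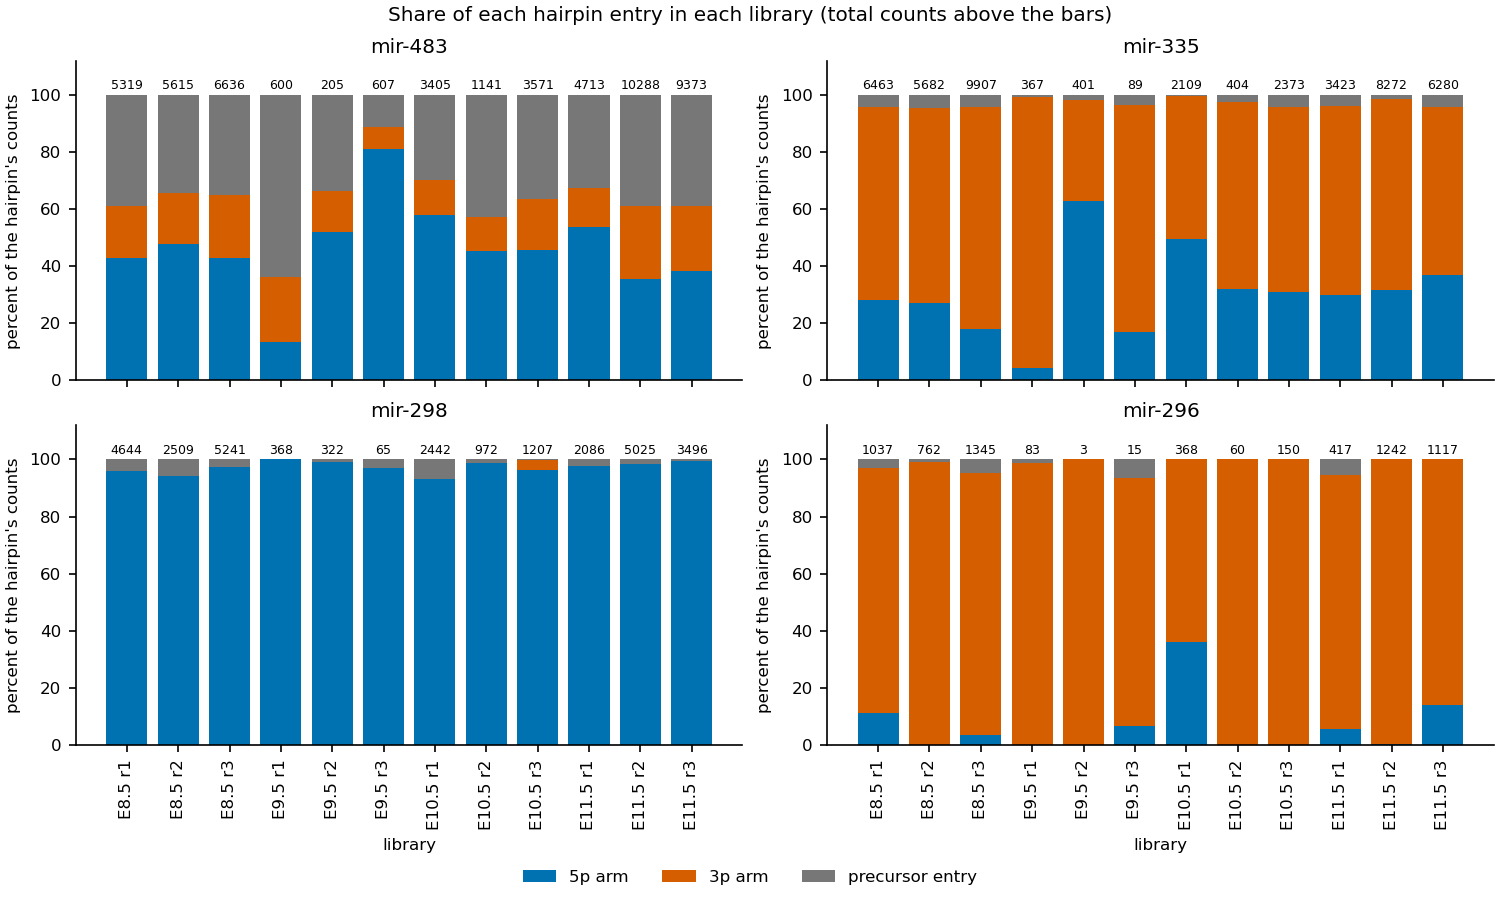
Share of each hairpin's counts (y axis, percent) that fell to the 5p arm, the 3p arm and the precursor entry in each library (x axis), with total counts above the bars and r1 to r3 for replicates 1 to 3. The precursor part of mir-483 is 29.7% to 42.7% outside E9.5, the mir-335 and mir-483 bars vary most among the E9.5 libraries, and mir-298 is nearly all 5p and mir-296 mostly 3p.

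miR-298-5p and miR-296-3p come from neighbouring hairpins of the Gnas locus and opposite arms. miR-298-5p took 99.9% of the arm counts of mir-298, whereas the 5p arm took only 7.29% of those of mir-296. The E8.5 libraries held 7672, 6106 and 7372 CPM of miR-298-5p, and the E9.5 libraries 5988, 3404 and 1593 CPM. The E10.5 libraries held 8658, 8258 and 4533 CPM, and the E11.5 libraries 4647, 4522 and 4191 CPM. No E9.5 or E11.5 value reached the E8.5 range, while E10.5 overlapped it. Its log2 fold changes were −0.95 from E8.5 to E9.5 (SE 0.48, adjusted p 0.264), 0.96 from E9.5 to E10.5 (SE 0.48, adjusted p 0.288), −0.68 from E10.5 to E11.5 (SE 0.48, adjusted p 0.641) and −0.67 from E8.5 to E11.5 (SE 0.48, adjusted p 0.523), all from edgeR, and none was called. Its biological coefficient of variation, 0.564, was the lowest of the 13, beside a median of 1.24 over all entries.

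miR-296-3p stood at 1536, 1953 and 1781 CPM in the E8.5 libraries, and at 1334, 32.0 and 328.7 CPM in the E9.5 libraries, from 82, 3 and 13 counts. Its E10.5 values were 899, 516 and 584 CPM, and its E11.5 values were 847, 1137 and 1159 CPM. The E8.5 libraries thus lay above all 9 later ones, as those of miR-335-3p did, and E9.5 replicate 1 exceeded the other E9.5 libraries by far. Its log2 fold change was −1.64 from E8.5 to E9.5 (SE 0.96, adjusted p 0.303 in edgeR) and −0.75 from E8.5 to E11.5 (SE 0.93, adjusted p 0.789). Without E9.5 replicate 1 the first became −3.45 (adjusted p 0.0354). In the comparison of the Pdx1-Cre stages with E8.5 its adjusted p was 0.250.

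The minor products of this pair of hairpins were too sparse to compare. mmu-miR-296-5p had 116, 0 and 45 counts in the E8.5 libraries and 0, 0 and 1 in the E9.5 libraries. The E10.5 libraries had 132, 0 and 0 counts of it, so that libraries of the same stage held either nothing or over 100 reads, and in those of E11.5 it stood at 52.5, 0.916 and 185 CPM. The precursor entry mir-296 had 30, 6 and 65 counts in the E8.5 libraries, 2 in all in those of E9.5, none in those of E10.5 and 23 counts in a single E11.5 library. The precursor entry mir-298 had 194, 145 and 129 counts in the E8.5 libraries and 0, 3 and 2 in those of E9.5 (log2 fold change −3.47, SE 1.82, adjusted p 0.271 in edgeR), then 170, 11 and 4 in those of E10.5 and 50, 88 and 14 in those of E11.5. Although 378 bases apart, the main arms miR-298-5p and miR-296-3p followed each other only loosely over the 12 libraries (Spearman 0.43). The entries closest to miR-298-5p were miR-103-3p (0.84), miR-151-5p (0.83) and miR-423-3p (0.81), and the closest to miR-296-3p were miR-674-3p (0.92), miR-218-5p (0.88) and miR-374b-5p (0.88).

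The scatter of the E9.5 libraries was seen across the members. In each library the number of entries per count peaked a second time above the lowest counts, at 30.4 to 124 reads, here called the second count level. At E9.5, 25 of the 39 member values lay under that level, 17 were at or under 3 counts, and none reached 10 times the level. At E8.5, 8 of 39 values lay under it and 21 reached 10 times the level, and at E11.5 the numbers were 9 and 22. E10.5 lay between, with 13 and 7. miR-296-3p in E9.5 replicate 1 had 82 counts, beside a second count level of 81.9 in that library. The coefficient of variation of CPM among the 3 libraries had a median of 99.2% over the 8 tested mature members at E9.5, against 21.7%, 41.9% and 22.1% in the E8.5, E10.5 and E11.5 groups. Over all entries with a mean of at least 1000 CPM it was 73.2% at E9.5 and 21.01%, 36.5% and 21.7% at the other stages, so the scatter was not confined to these miRNAs.

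**Figure D4:**
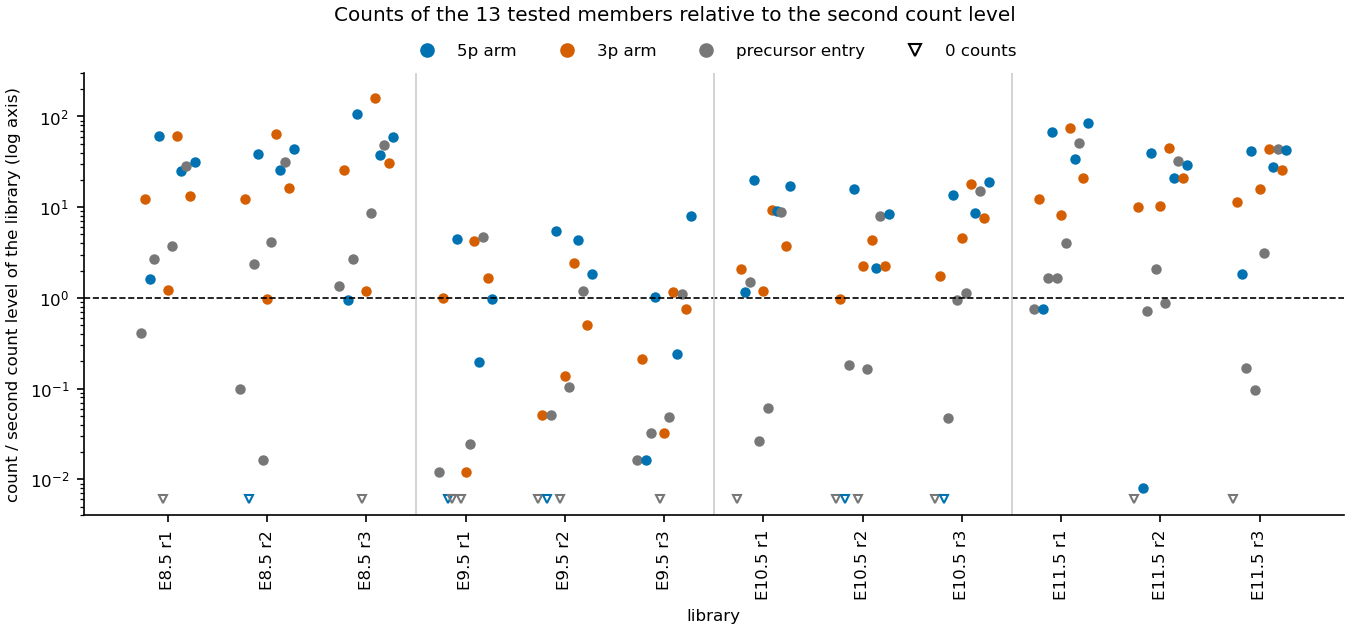
Counts of the 13 tested entries divided by the second count level of their library (y axis, log scale) in each library (x axis, r1 to r3 for replicates 1 to 3), with 5p arms in blue, 3p arms in orange, precursor entries in grey, open triangles for 0 counts and a dashed line at 1. At E9.5 the points lie around and under the line and none reaches 10, whereas at E8.5 and E11.5 most mature arms lie above 10.

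The other imprinted miRNA entries were taken as lists from names alone. Of 128 Dlk1-Dio3 entries, from the maternally expressed cluster, all but 27 were tested. Of these, 1 was called higher from E8.5 to E9.5, 2 from E9.5 to E10.5, 0 from E10.5 to E11.5 and 3 from E8.5 to E11.5, with 0 called lower in each. Over all entries 4.03%, 1.58%, 0% and 5.25% were called higher, and 1.58%, 2.80%, 0.350% and 6.30% were called lower. The median log2 fold changes of the list were 0.12, 0.64, −0.15 and 0.69, beside −0.84, 0.17, 0.07 and −0.07 over all entries. Of 83 Sfmbt2 entries, from an intronic cluster that is paternally expressed mainly in placenta, 38 were tested. In each comparison 0 of them were called, beside 5.60%, 4.38%, 0.350% and 11.6% of all entries. Their medians were −0.42, −0.97, −1.02 and −1.19. The members described above had medians of −1.64, 0.96, 0.04 and −0.38 in the same comparisons. No test of the difference between the lists was made.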

How the data were processed

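The deposited table held raw read counts per miRNA entry, 1 column per library, made by the authors with COMPSRA (adapter and 4 random bases trimmed, STAR alignment to mm10, reads of at least 17 bases counted to mature and precursor miRNAs). The random bases were not used to count molecules. Counts were tested with edgeR 4.0.16 in R 4.3.3 (glmQLFit, TMM, stage as the only factor, 12 libraries, filterByExpr with minimum count 10 and minimum total 15), with Benjamini-Hochberg adjustment over all 571 entries tested. SE is the fold change divided by the square root of F. CPM used TMM-scaled totals. The script was tested on simulated data. Members and lists were chosen with earlier results of these data known. Every entry matching the names was described, together with the 3 tested entries of other hairpins most like each tested member (Spearman, log2 CPM, prior count 2). Those closest to the sparse members are not printed. Alternatives were RLE factors, library size alone, other filters, DESeq2 1.42.0, limma voom (limma 3.58.1), only the libraries compared, a replicate block, mature arms only, removal of mir-6236 and mir-6240, low counts set to 0, counts divided by the second count level, and leaving out each library. The labels do not say that libraries of a stage came from separate litters, so p-values measure the spread between libraries. The library number in the labels coincided with stage, so a batch it may mark cannot be told apart from stage. No pair of libraries of a stage agreed within sampling noise (chi-square per degree of freedom at least 41.5).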

Additional observations from a re-analysis of the deposited data

How the results depend on the processing

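Depth limits E9.5 most, where 17 of 39 member values were at or under 3 counts, so a change against E9.5 cannot be sized closely. The rise of miR-3099-3p from E9.5 to E10.5 was called in 7 of 11 refits that kept all libraries and in 9 of 12 that left out a library. Among the 7 was the edgeR refit with counts under 10 set to 0 (log2 fold change 11.6, adjusted p 0.00823). That setting removed every E9.5 count of miR-3099-3p, so a larger change was fixed in advance there. The lower miR-335-3p of the Pdx1-Cre stages was called in 9 of 11 and 6 of 12. The 21 printed changes that were not called became called in 13 of 242 and 10 of 252 such refits, which concerned 6 and 8 of the changes.

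The number of entries called from E8.5 to E9.5 was 50 with RLE factors, 79 with DESeq2 and 17 with limma voom, against 32. These fits tested 571 entries, as did those named next unless another number is given. From E9.5 to E10.5 the number called was 50 of 1053 with no filter on low counts, 68 with DESeq2 and 1 with limma voom, against 25. It was 11 of 252 in the 6 libraries alone. From E10.5 to E11.5 it was 5 of 1053 with no filter, 8 with DESeq2 and 4 of 403 in the 6 libraries alone, against 2. It was 1 of 374 with mature arms only, 1 of 568 without mir-6236 and mir-6240 and 0 of 554 with counts under 10 set to 0. With each count divided by its library's second level it was 5 of 98. From E8.5 to E11.5 it was 147 with limma voom and 106 of 527 in the 6 libraries alone, against 66. It was 33 of 554 with counts under 10 set to 0. For the Pdx1-Cre stages against E8.5 it was 166 with limma voom and 63 of 98 with divided counts, against 102 of 571. Leaving out a library in turn gave 21 to 44, 7 to 42, 1 to 5, 38 to 80 and 76 to 140 calls in these comparisons. These refits tested 623 to 701 entries. The counts that moved by over 1.5 times were 21 without E8.5 replicate 2 or 3 in the first, 42 when E9.5 replicate 2 was left out, 13 for E10.5 replicate 1 and 7 for E10.5 replicate 2 in the second, 1 for either E8.5 replicate 2 or replicate 1 of E11.5, 4 for E9.5 replicate 1 and 5 for E9.5 replicate 3 in the third, and 38 without E8.5 replicate 3 in the fourth.

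The number of members called from E8.5 to E9.5 was 1 of 13 with library size alone, against 0 of 13. It was 2 of 13 with counts under 10 set to 0, among them miR-3099-3p, whose E9.5 counts all became 0, and 2 of 6 with divided counts. Over all entries these refits called 29 of 571, 35 of 554 and 40 of 98. From E9.5 to E10.5 the number of members was 0 with RLE factors, with limma voom and in the 6 libraries alone, against 1. It was also 0 without mir-6236 and mir-6240 and with divided counts (where miR-3099-3p did not pass the filter). Over all entries these refits called 24 of 571, 1 of 571, 11 of 252, 21 of 568 and 17 of 98. From E8.5 to E11.5 the number of members was 2 of 13 with DESeq2 and 3 of 13 with limma voom, against 0. It was 2 of 12 in the 6 libraries alone, 1 of 8 with mature arms only and 3 of 6 with divided counts. Over all entries these refits called 94 of 571, 147 of 571, 106 of 527, 63 of 374 and 64 of 98. For the Pdx1-Cre stages the number of members was 0 with RLE factors and 3 of 13 with limma voom, against 1. It was 3 of 6 with divided counts. With DESeq2 the 1 member called was miR-3099-3p, which was higher. Over all entries these refits called 98 of 571, 166 of 571, 63 of 98 and 117 of 571. Leaving out a library gave 0 to 2, 0 to 2, 0 to 0, 0 to 1 and 0 to 2 members. In the first 4 comparisons these moved only without an E9.5 library, which added 1 or 2 members, and in the second also without any E10.5 library, which left 0. Over all entries the refits without an E9.5 library called 33 to 44 in the first and 33 to 42 in the second. They called 75 to 80 in the fourth, and those without an E10.5 library called 13, 7 and 25 in the second. In the last, 0 members were left without any E8.5 library, E9.5 replicate 2 or E10.5 replicate 1 or 2, and 2 were called without E9.5 replicate 1 or E11.5 replicate 1. Over all entries the former refits called 76 to 118, and the latter 109 and 138.

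Over all entries, RLE factors shifted the median change (log2) by 0.64, −0.46, −0.22 and −0.14 in the 4 comparisons, and library size alone moved it by −0.26, 0.04, 0.03 and −0.16. With RLE factors 44 entries were called higher and 6 lower from E8.5 to E9.5 (23 and 9 with TMM), and 1 higher and 23 lower from E9.5 to E10.5 (9 and 16 with TMM).

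Among the printed changes, signs turned only for mir-483 entries, whose changes with all libraries (−0.16 to 0.59) were each smaller than their SE. The change of miR-483-5p from E8.5 to E9.5 became 0.81 with RLE factors, 0.44 with the stricter filter, 0.81 with DESeq2, 0.76 in the 6 libraries alone, 0.11 with mature arms only and 0.55 without mir-6236 and mir-6240, and from −2.03 to 0.76 on leaving out a library. From E9.5 to E10.5 it became −0.41 with RLE factors, −0.14 with the stricter filter, −0.41 with DESeq2 and −0.26 without mir-6236 and mir-6240, and from −0.40 to 2.34 on leaving out a library. From E8.5 to E11.5, miR-483-3p became −0.079 with RLE factors, −0.10 with library size alone, −0.022 with the stricter filter, −0.078 with DESeq2, −0.0025 with the replicate block, −0.16 with counts under 10 set to 0 and −0.41 with divided counts, and mir-483 became 0.026 with limma voom. On leaving out a library these 2 ran from −0.082 to 0.38 and from −0.15 to 0.15, miR-483-5p in that comparison from −0.27 to 0.10, and mir-483 from E9.5 to E10.5 from −0.020 to 1.95. The causes were not tested.

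No pairing of libraries by replicate number was seen. Over 18 same-number pairs the correlation of deviations ran from −0.15 to 0.11, and over 36 other pairs from −0.14 to 0.13. Of the 12 libraries, 4 correlated best with their own number. With 3 libraries per stage, this cannot show that pairing was absent. With the replicate number as a block, 26, 22, 3 and 61 entries were called, and 0, 1, 0 and 0 members.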

Other observations

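Levels of the remaining tested members had these nearest entries over the 12 libraries. mir-335 followed miR-149-5p (Spearman 0.97), miR-676-5p (0.91) and miR-101a-3p (0.90), all of which lie outside the imprinted lists used here. miR-335-5p followed miR-877-5p (0.84), the precursor mir-1983 (0.79) and miR-92b-3p (0.78). miR-483-5p followed miR-337-5p (0.85) and the precursor mir-379 (0.78), both Dlk1-Dio3 entries, and miR-199b-3p (0.78). miR-483-3p followed miR-155-5p (0.77), miR-342-3p (0.73) and miR-669o-5p (0.73), the last a Sfmbt2 entry. The precursor mir-483 followed miR-669o-5p (0.74), miR-30a-5p (0.72) and miR-380-3p (0.71). miR-335-3p followed miR-466b-3p and miR-466c-3p of Sfmbt2 (0.84 each) as closely as miR-296-3p. These are the highest of the 571 entries tested, over libraries that share depth, and they were not tested.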
